A study of Mus musculus with 54 samples.

Results

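The AP-1 factor genes Fos, Fosb, Fosl1, Fosl2, Jun, Junb, Jund and Batf, together with Atf3 and Egr1, were followed across 15 conditions of mouse peritoneal macrophages. They were chosen by symbol: each of the 10 symbols matched 1 of the 39179 gene identifiers in the count tables, of which 37693 carry a symbol in the GENCODE M21 annotation.

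AP-1 is a dimer of basic leucine zipper proteins. JUN proteins pair with each other or with FOS proteins, and the pairs bind a short palindrome in promoters and enhancers, whereas BATF and ATF3 belong to the same zipper superfamily and can take the place of a FOS partner. Most of these genes, and the zinc finger gene Egr1, are immediate early genes: MAP kinases and serum response factor switch them on within minutes of a stimulus without new protein synthesis, and their mRNAs decay quickly. In macrophages, Toll-like receptor ligands such as lipopolysaccharide (LPS) are known to induce them transiently.

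The cells came from C57BL/6 mice aged 8 to 20 weeks, whose peritoneal cells were drawn out by thioglycolate and kept as the adherent fraction, so every condition shares that inflammatory elicitation. In the polarization experiment, cells of 3 mice were cultured for 24 h without added cytokine (M0), with LPS at 100 ng/ml plus interferon gamma at 50 ng/ml (M1-like), or with 10 ng/ml interleukin 4 (M2-like). In the reprogramming experiment, M0, M1-like and M2-like cells were left untransfected or were given transfection reagent without siRNA (mock), and M2-like cells also received an siRNA pool: the negative control pool, a pool against E2f1, Myc, Pparg or Stat6, or all 4 of these at once (combined pool). Transfection followed the 24 h of polarization and RNA was taken 48 h later, after interleukin 4 had been withdrawn. The methods place the harvest of cells that were not reprogrammed at 24 h of polarization, without saying separately whether this holds for the untransfected libraries sequenced with the reprogramming experiment. No group carries a transgene or an engineered allele. The methods speak of 3 biological replicates for RNA taken to real-time PCR, but the labels do not say whether the 3 sequenced replicates of a reprogramming condition came from separate animals or cultures, so their p-values measure only the spread between these samples, which may be technical.

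The polarization experiment held 18 libraries (2 sequencing runs of each of 9 samples, single reads of 50 bases) and the reprogramming experiment 36 (paired reads of 150 bases). After the runs were summed, a polarization sample held 39577911 to 59443987 counted reads and a reprogramming library 13421854 to 19704195. The 6 macrophage markers (Lyz2 the highest of them) summed to between 10100 and 17300 reads scaled to library size (CPM, reads per 1000000 counted) at 24 h and between 6160 and 18300 CPM in the reprogramming experiment, with none at 0 in any group. Each siRNA pool lowered the mRNA it was designed against: relative to the negative pool, E2f1 fell from 20.1 to 5.06 CPM, Myc from 20.1 to 7.66, Pparg from 130 to 28.6 and Stat6 from 294 to 80.2. The 2 experiments were tabulated, sequenced and normalized separately, so a difference between the 2 experiments was not tested anywhere below.

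The stretch in front of a start site annotated by RefSeq is shown for 3 FOS family genes. It was chosen because it carries a short letter pattern of the CREB, EGR or TATA type close to the start. A further reason was that Fosb and Fosl2, together with Egr1 and Jun, were higher in mock than in untransfected M0 cells. Fos was not called there, and the window of Jun held GGGCGG but none of the patterns set in capitals below. Whether these letters relate to that change was not tested. Of the 10 genes, 8 matched an entry of the RefSeq promoter table (build GRCm38.p6), and Egr1 and Fosl1 did not. Fos lies at chr12:85473640-85473889 on the plus strand, Fosb at chr7:19310046-19310295 on the minus strand and Fosl2 at chr5:32136222-32136471 on the plus strand. Each sequence is the 250 bases before the start given by that table, 5′ to 3′ on the strand of the gene. In GENCODE M21 the Fosl2 gene begins at 32135801, so its window lies inside the annotated gene and not in front of it. Which start these cells use was not tested. Capitals mark TGACG (the core of a cyclic AMP response element), TATAAA (bound by the general factor TBP) and GCGNGGGCG (the site that EGR proteins bind).
Fos: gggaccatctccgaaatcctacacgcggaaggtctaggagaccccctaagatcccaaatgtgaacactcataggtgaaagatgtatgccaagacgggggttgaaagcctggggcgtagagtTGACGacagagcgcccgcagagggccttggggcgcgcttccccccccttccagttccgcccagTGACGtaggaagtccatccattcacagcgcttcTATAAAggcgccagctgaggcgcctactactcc
Fosb: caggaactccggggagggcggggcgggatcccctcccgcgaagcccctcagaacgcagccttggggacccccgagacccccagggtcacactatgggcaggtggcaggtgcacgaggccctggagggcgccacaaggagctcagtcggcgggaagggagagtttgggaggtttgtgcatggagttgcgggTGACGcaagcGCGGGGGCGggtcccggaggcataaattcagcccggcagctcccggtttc
Fosl2: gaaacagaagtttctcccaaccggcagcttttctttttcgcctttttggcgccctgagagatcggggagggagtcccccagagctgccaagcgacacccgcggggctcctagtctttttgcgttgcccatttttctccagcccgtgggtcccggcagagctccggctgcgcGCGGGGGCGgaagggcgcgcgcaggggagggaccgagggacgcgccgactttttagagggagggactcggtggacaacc
In Fos, TGACG stands 129 to 125 and 66 to 62 bases before the start and TATAAA 33 to 28 bases before it. In Fosb, TGACG stands 60 to 56 bases and GCGNGGGCG 50 to 42 bases before the start, whereas in Fosl2 GCGNGGGCG stands 79 to 71 bases before it. In both Fosb and Fosl2 the EGR letters overlap a GC box (GGGCGG). Both strands of the same window were searched in all 32851 entries. TGACG was held by 5 of the 8 genes (Atf3, Fosb, Junb, Fos and Batf) and by 17.8% of all windows, GCGNGGGCG by 2 (Fosb and Fosl2) and 4.7%, GGGCGG by 6 and 32.7%, and TATAAA by 1 (Fos) and 12.4%. The full AP-1 palindrome TGACTCA, present in 4.46% of windows, and the full element TGACGTCA, present in 1.55%, were found in 0 of the 8. Only exact letters were searched, so close variants were not counted. The Jun window, for example, holds TGACATCA, which differs from TGACGTCA in 1 base. These counts describe letters in a window and not binding. For Junb, Jund and Batf, the bases that follow the RefSeq start were found in 0 GENCODE M21 transcripts of the gene. The Jund window ends at 70697738, before the GENCODE gene begins at 70698949. The counts of the 8 genes therefore include windows that may not lie at the start of the counted gene.

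After 24 h with LPS and interferon gamma, the AP-1 genes had moved in opposite directions. Fosl1, Junb, Fosl2, Batf, Atf3 and Jund were higher than in M0 cells, while Fos, Egr1 and Jun, 3 immediate early genes that LPS is known to induce within the first hours, were lower. Compared with M0, 6 of the 9 tested genes were higher and 3 lower, where 35.4% of all 16110 tested genes were higher and 37.5% lower (edgeR quasi-likelihood test, Benjamini-Hochberg adjusted p below 0.05). The same 6 genes were higher and the same 3 lower against M2-like cells, a comparison that shares the M1-like samples, with 34.6% and 38.1% of all genes called. Calls were therefore frequent among all genes, and the members' count by itself says little about them. In bulk RNA, fewer cells of a type and less RNA per cell cannot be told apart.

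Fosl1, which encodes the FOS family protein FRA-1, gave the largest change of the 9 genes. It measured 0.62, 0.746 and 0.809 CPM in the M0 cells of the 3 mice and 13.4, 8.91 and 10.2 CPM in their M1-like cells. Every M1-like sample was thus far above every M0 sample, and the increase was 14.8-fold (log2 fold change 3.89 ± 0.201 SE, adjusted p = 3.96e-09). Fosl2, the gene of the related FRA-2, went from 31.3, 30.4 and 30 CPM to 94.4, 72.5 and 61.5 CPM (log2 fold change 1.32 ± 0.126, adjusted p = 1.36e-06), again without overlap. The founding member Fos moved the other way, from 24.9, 23 and 27.5 CPM to 10.8, 6.97 and 8.74 CPM. The M1-like samples were all lower, by 2.84-fold (log2 fold change -1.51 ± 0.145, adjusted p = 1.42e-06). Fosb, a FOS gene that is seldom transcribed without a fresh stimulus, had 25 reads over all 9 samples, between 1 and 5 in each, and was too low to be tested.

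Among the JUN genes, Junb rose and Jun fell. Junb, whose product is a weaker activator than JUN in many settings, measured 84.1, 73.3 and 75.8 CPM in M0 cells and 281, 249 and 283 CPM in M1-like cells. The groups stood well apart, at a 3.48-fold difference (log2 fold change 1.8 ± 0.153, adjusted p = 4.35e-07). Jun measured 175, 168 and 166 CPM in M0 cells against 112, 102 and 97.3 CPM (log2 fold change -0.71 ± 0.0926, adjusted p = 2.17e-05). Jund, the JUN gene known for steady expression in resting cells, went from 45.8, 42.3 and 41.8 CPM to 63.3, 72.8 and 71.4 CPM (log2 fold change 0.68 ± 0.138, adjusted p = 0.000832). In neither gene did a sample of one group reach the other group.

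Atf3, a stress-induced factor known to restrain inflammatory genes in macrophages, was the most abundant of the 10 per kb of exon in every condition, although in untransfected M1-like cells of the reprogramming experiment its mean (179 ± 17.8 CPM per kb, SD, n = 3) lay within the SD of that of Jund (161 ± 36.1). At 24 h it measured 535, 532 and 516 CPM in M0 cells and 1080, 989 and 995 CPM in M1-like cells, a 1.94-fold increase (log2 fold change 0.95 ± 0.062, adjusted p = 3.52e-08). Batf, which pairs with JUN proteins and is known for its work with IRF factors in immune cells, rose from 5.7, 5.3 and 5.77 CPM to 11.2, 13.1 and 14.1 CPM (log2 fold change 1.2 ± 0.129, adjusted p = 4e-06). Egr1 went from 3.98, 4.68 and 4.5 CPM down to 1.13, 1.3 and 1.81 CPM, a 3.06-fold decrease (adjusted p = 2.7e-06). None of these sets of values overlapped. Leaving out any of the 9 samples changed none of the 18 calls of the 2 comparisons with M1-like cells.

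With interleukin 4, Fosl2, Atf3 and Fos passed the test. Against M0 cells, 3 of 9 members were higher and 0 lower at 24 h (13.5% and 14.4% of all genes): Fosl2 at 55.7, 50.2 and 48 CPM (log2 fold change 0.75 ± 0.125, adjusted p = 0.00112), Atf3 at 633, 689 and 650 CPM (0.32 ± 0.0615, adjusted p = 0.00277) and Fos at 30.1, 31.9 and 38.9 CPM (0.42 ± 0.135, adjusted p = 0.0369). The Fos call was lost without M0 replicate 1 (adjusted p = 0.107), M0 replicate 2 (0.138), M2-like replicate 2 (0.054) or M2-like replicate 3 (0.114). Junb, at 45.4, 69.8 and 76.5 CPM in M2-like cells, and Jund, at 32.6, 51.6 and 50.2 CPM, were lowest in the first mouse, and both overlapped M0. Set directly against M2-like cells, M1-like cells had 4.23-fold more Junb and 18.4-fold more Fosl1, but 3.81-fold less Fos and 3.66-fold less Egr1.

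**Figure D1:**
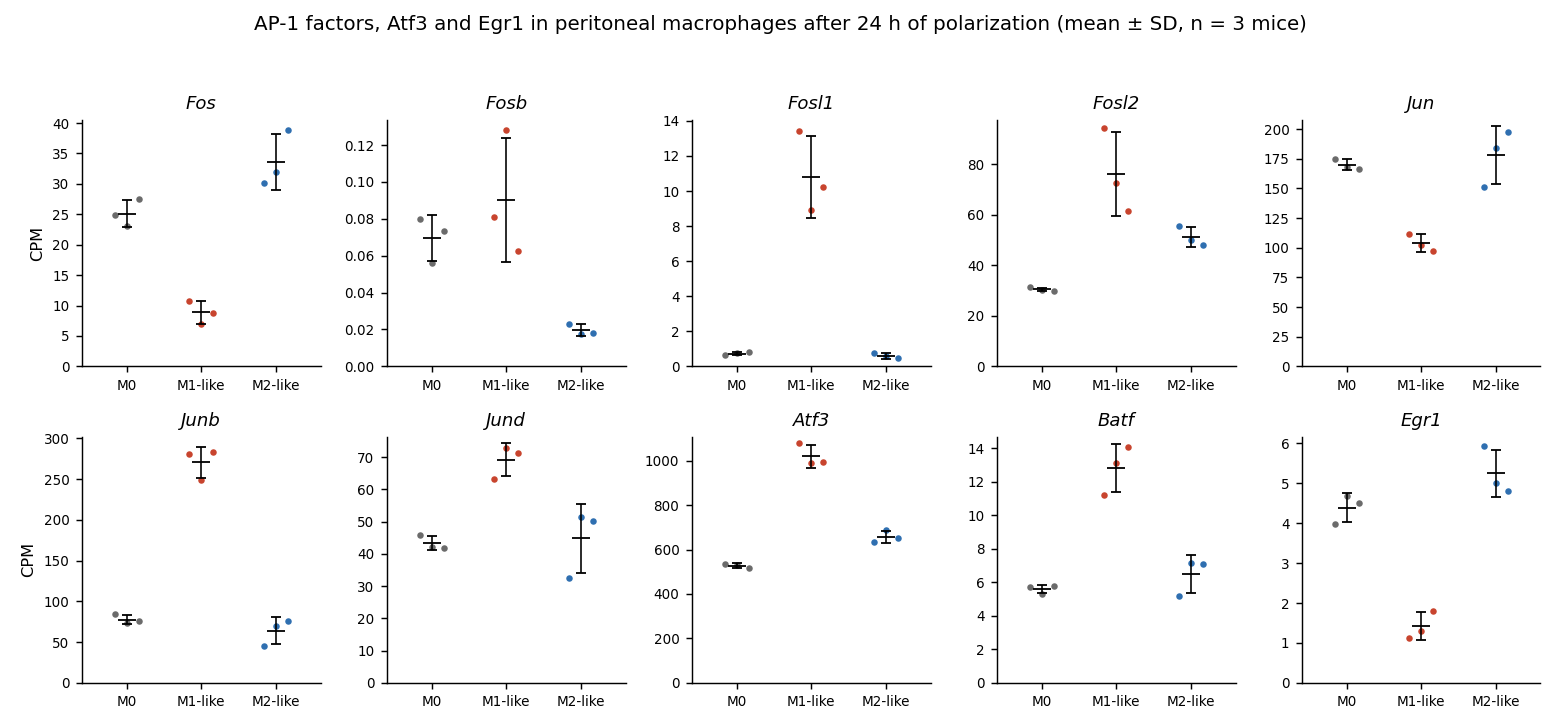
CPM of the 10 genes in the M0, M1-like and M2-like cells of 3 mice at 24 h, each gene on a linear axis of its own from 0, with 1 point per mouse and bars for the group mean ± SD. Fosl1 sits at 8.91 to 13.4 CPM in M1-like cells and below 1 CPM in the others, whereas Fos and Egr1 are lowest in M1-like cells.

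Per kb of exon, which allows genes to be ranked within a sample group, the order in M0 cells at 24 h ran from Atf3 (245 ± 4.63 CPM per kb, SD, n = 3) through Jun (53.2 ± 1.41), Junb (33.8 ± 2.46), Jund (26 ± 1.33), Fos (10.7 ± 0.963), Batf (3.98 ± 0.183), Fosl2 (3.16 ± 0.0654) and Egr1 (0.979 ± 0.081) to Fosl1 (0.357 ± 0.0472) and Fosb (0.0112 ± 0.002). In M1-like cells the same scale put Junb (118 ± 8.32) second and Jun (32.5 ± 2.32) below Jund (41.5 ± 3.07), and lifted Fosl1 (5.32 ± 1.14) above Fos (3.76 ± 0.822). Batf (9.11 ± 1.02) and Fosl2 (7.87 ± 1.73) were neighbours within their SDs there.

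The genes around these factors were called often too, but so were all genes. In M1-like against M2-like cells at 24 h, 34.6% of all tested genes were higher and 38.1% lower. Of 17 partner genes of the basic leucine zipper class, 12 stood higher and 4 lower at 24 h when M1-like were set against M2-like cells, with a median log2 fold change of 0.65 beside -0.06 for all genes. Batf2, an interferon-inducible relative of Batf, rose most (log2 fold change 6.24). Of 9 MAP kinase phosphatases, the enzymes that switch off the kinases upstream of AP-1, 5 were higher and 2 lower (median 1.7), between Dusp8 at 3.06 and Dusp2 at -3.96. Of 14 other immediate early genes 10 were higher and 0 lower (median 1.49), led by Csrnp1 at 3.71. The 18 kinases and cofactors upstream gave 10 higher and 6 lower (median 0.34), with Map2k1 at 2.42 and Map2k6 at -4.75, and the 4 measured genes of the EGR family and its NAB corepressors gave 2 and 2, with Egr3 at 1.31 and Egr2 at -1.75. Of 12 genes known as AP-1 targets, 7 were higher and 5 lower (median 1.39), with the cytokine gene Il1b at 9.2 and the elastase gene Mmp12 at -7.24.

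Markers of some other cells were lower in the M1-like condition at 24 h. The 6 mesothelial and fibroblast markers summed to 2.76 to 4.43 CPM in M1-like cells against 12 to 19.4 in M0 cells, with 1 and 0 of the 6 at 0. The 5 eosinophil markers summed to 0.27 to 0.817 against 15.6 to 17 CPM, with Epx, Prg2 and Ear6 at 0 in the M1-like cells. Siglecf was the highest of them in both groups, and 1 of the 5 was at 0 in M0 cells. The 6 neutrophil markers summed to 10.1 to 15.2 against 28.8 to 35.8 CPM, with S100a8 the highest in M1-like and Mmp8 in M0 cells. T cell markers (0.108 to 0.204 against 0.0746 to 0.2 CPM) and mast cell markers (2.22 to 3.05 against 2.3 to 4.5 CPM) overlapped between these groups. B cell markers summed to 5.16 to 5.55 against 5.67 to 10.2 CPM. The macrophage markers themselves summed to 10100 to 11100 CPM in M1-like, 12700 to 13000 in M2-like and 16100 to 17300 CPM in M0 cells. Their part in the results for the 10 genes was not tested.

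In the reprogramming experiment the states were compared among untransfected cells, which may also have been taken at 24 h, and among mock cells, taken 48 h after the reagent was given. In both sets M1-like cells had less Jun, Atf3 and Egr1 mRNA than cells of both other states, and Batf was higher. Fos was higher in the M1-like group, opposite to its place at 24 h in the polarization experiment. Among mock cells its libraries lay above all of M0, and leaving out any library kept that call (0.89 to 1.49, adjusted p at most 0.00418). Among untransfected cells, leaving out M1-like replicate 1 lost the call against M0. The same step shrank the difference from untransfected M2-like cells but kept its call. The call against M2-like mock cells was lost without replicate 1 of either group. Junb and Jund passed the test in none of the comparisons between states, and Fosl1, the leading gene at 24 h, was near 1 CPM in every untransfected state.

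Without reagent, M1-like against M0 cells gave 3 members higher and 3 lower of 10 (29% and 28.7% of all 14172 tested genes), M1-like against M2-like cells 2 higher and 3 lower (31.3% and 30.2%), and M2-like against M0 cells 1 higher and 0 lower (10.7% and 9.19%). These comparisons share their samples pairwise. Jun measured 321, 314 and 301 CPM in M0, 204, 190 and 212 CPM in M1-like and 458, 393 and 349 CPM in M2-like cells. The M1-like libraries were the lowest (log2 fold change -0.62 ± 0.142 against M0, adjusted p = 0.000364, and -0.98 ± 0.142 against M2-like, adjusted p = 4.7e-07). Atf3 had the same order, with 552, 554 and 582 CPM in M0, 425, 349 and 383 CPM in M1-like and 711, 663 and 655 CPM in M2-like cells. Its log2 fold change in M1-like cells was -0.54 ± 0.0885 against M0 (adjusted p = 3.78e-06) and -0.81 ± 0.0888 against M2-like cells (adjusted p = 2e-09). Between M2-like and M0 cells Atf3 was the only member called (log2 fold change 0.27 ± 0.0882, adjusted p = 0.0312), and that call was lost without M0 replicate 1 (adjusted p = 0.0923), M0 replicate 2 (0.0993), M2-like replicate 1 (0.12) or M2-like replicate 2 (0.0548).

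Batf measured 10.4, 9.8 and 9.75 CPM in untransfected M0, 15.5, 18.6 and 24.3 CPM in M1-like and 8.58, 7.86 and 8.2 CPM in M2-like cells. All M1-like libraries lay above the rest, with log2 fold changes of 0.96 ± 0.16 against M0 (adjusted p = 5.38e-06) and 1.24 ± 0.164 against M2-like cells (adjusted p = 7.88e-08). Fosl2 was also higher in M1-like than in M0 cells (80.2, 75.7 and 65.2 against 53.4, 54.8 and 52.7 CPM, log2 fold change 0.46 ± 0.108, adjusted p = 0.000515). Fos measured 146, 53.3 and 74.5 CPM in M1-like cells, 41.2, 54.5 and 52.2 CPM in M0 and 32, 50.7 and 48.7 CPM in M2-like cells. The first M1-like library stood far above the other 2, and the second overlapped M0. The Fos increase over M0 (log2 fold change 0.89 ± 0.252, adjusted p = 0.00317) shrank to 0.37 without M1-like replicate 1 (adjusted p = 0.174), and that over M2-like cells (1.06 ± 0.254, adjusted p = 0.000569) to 0.55 (adjusted p = 0.0431).

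Egr1 was low in untransfected M1-like cells, at 4.64, 9.57 and 5.93 CPM against 11, 9.99 and 9.89 CPM in M0 and 10.9, 16 and 10.3 CPM in M2-like cells. The groups did not overlap. The log2 fold change was -0.9 ± 0.215 against M2-like cells (adjusted p = 0.000592) and -0.62 ± 0.219 against M0 (adjusted p = 0.0157). The second lost its call without M1-like replicate 1 (log2 fold change -0.41, adjusted p = 0.133) or replicate 3 (-0.54, adjusted p = 0.0633), and moved to -0.96 without replicate 2. Fosb had 1, 2 and 3 reads in M0, 10, 1 and 6 in M1-like and 4, 5 and 6 in M2-like cells, too few for a difference between states to be detectable at this depth.

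**Figure D2:**
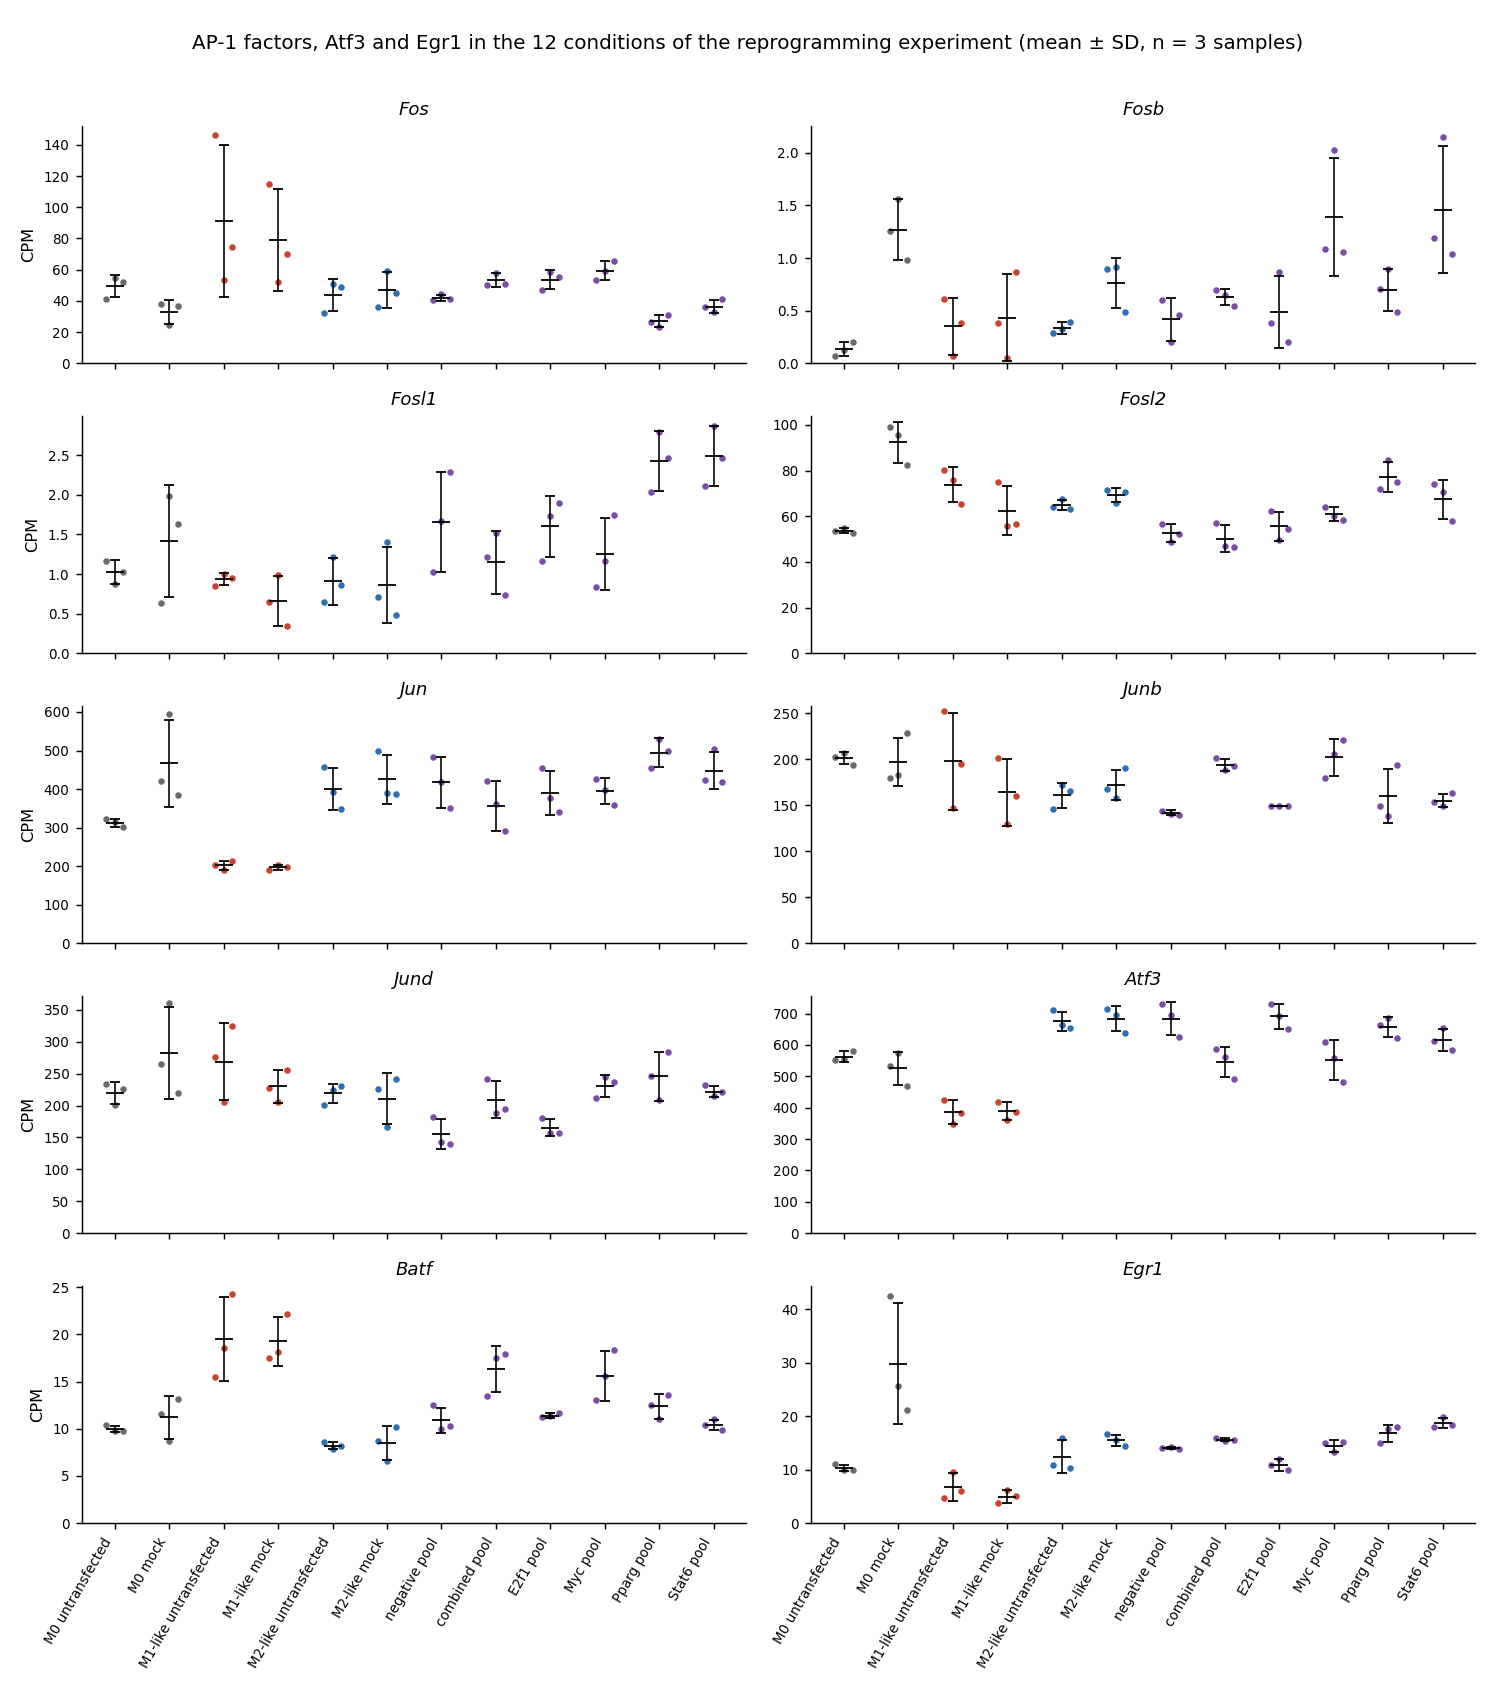
CPM of the 10 genes in the 12 reprogramming conditions, each gene on a linear axis of its own from 0, with 1 point per library and bars for the mean ± SD of 3. Egr1 and Fosb are high in M0 mock cells relative to M0 untransfected cells, and Jun and Atf3 are lowest in the 2 M1-like conditions.

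Among mock cells, M1-like against M0 gave the most calls of the reprogramming experiment: 2 of 10 members were higher and 6 lower (30.3% and 30% of all genes). Egr1 measured 42.5, 25.7 and 21.1 CPM in M0 mock and 3.7, 6.14 and 4.99 CPM in M1-like mock cells, with every M1-like library far below, a 5.97-fold decrease (log2 fold change -2.58 ± 0.208, adjusted p = 2.79e-12). Jun measured 420, 596 and 385 CPM against 190, 203 and 198 CPM, a 2.37-fold decrease (adjusted p = 6.4e-09). Fosl2 measured 99.2, 95.4 and 82.4 CPM against 75.1, 55.8 and 56.7 CPM (log2 fold change -0.56 ± 0.106, adjusted p = 3.26e-05), and Atf3 533, 575 and 468 CPM against 418, 361 and 386 CPM (-0.44 ± 0.0884, adjusted p = 8.86e-05). These 4 genes did not overlap between the groups.

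The 2 low FOS genes were lower as well, with few reads behind them. Fosb had 18, 29 and 15 reads in M0 mock and 7, 1 and 15 reads in M1-like mock cells (log2 fold change -1.59 ± 0.52, adjusted p = 0.0091), a difference that fell to -1.03 without M1-like mock replicate 2 (adjusted p = 0.0792) and grew to -2.57 without replicate 3. Fosl1 had 9, 37 and 25 reads against 12, 20 and 6 (-1.1 ± 0.403, adjusted p = 0.0199). Its groups overlapped, and the call was lost without M0 mock replicate 2 (-0.76, adjusted p = 0.165), M0 mock replicate 3 (-1, adjusted p = 0.0578) or M1-like mock replicate 3 (-0.81, adjusted p = 0.107). Fos, at 38.3, 24.4 and 36.6 against 115, 52.1 and 69.9 CPM, was higher without overlap (log2 fold change 1.26 ± 0.258, adjusted p = 9.84e-05), as was Batf, at 11.6, 8.7 and 13.2 against 17.5, 18.1 and 22.2 CPM (0.79 ± 0.156, adjusted p = 6.09e-05).

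M1-like against M2-like mock cells gave 2 higher and 3 lower (30.9% and 29.8% of all genes), the genes that were called without reagent: Batf (log2 fold change 1.18 ± 0.162, adjusted p = 1.94e-07) and Fos were higher, and Jun (-1.11 ± 0.142, adjusted p = 5.41e-08), Atf3 (-0.82 ± 0.0887, adjusted p = 1.99e-09) and Egr1 (-1.65 ± 0.214, adjusted p = 7.35e-08) lower. In M2-like mock cells Egr1 measured 16.6, 15.5 and 14.5 CPM, Jun 499, 390 and 388 CPM and Atf3 716, 697 and 639 CPM. The Fos difference (0.75 ± 0.253, adjusted p = 0.0109) came with overlapping groups and was lost without M1-like mock replicate 1 (0.38, adjusted p = 0.208) or M2-like mock replicate 1 (0.6, adjusted p = 0.0705). M2-like against M0 mock cells gave 1 higher and 2 lower of 10 (2.19% and 1.64%): Atf3 at 0.38 ± 0.0882 (adjusted p = 0.0103), Fosl2 at -0.41 ± 0.106 (adjusted p = 0.022) and Egr1 at -0.93 ± 0.188 (adjusted p = 0.00267). When only these 2 groups entered the model, 0 of the 3 were called (Atf3 adjusted p = 0.135, Fosl2 0.0823 and Egr1 0.0969). The Atf3 call was also lost without M0 mock replicate 3 (adjusted p = 0.0655) or M2-like mock replicate 1 (0.0642), and the Fosl2 call without M0 mock replicate 1 (0.081) or 2 (0.0911) or M2-like mock replicate 1 (0.056) or 2 (0.113). Without M0 mock replicate 1 the Egr1 difference was -0.59 (adjusted p = 0.049).

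**Figure D3:**
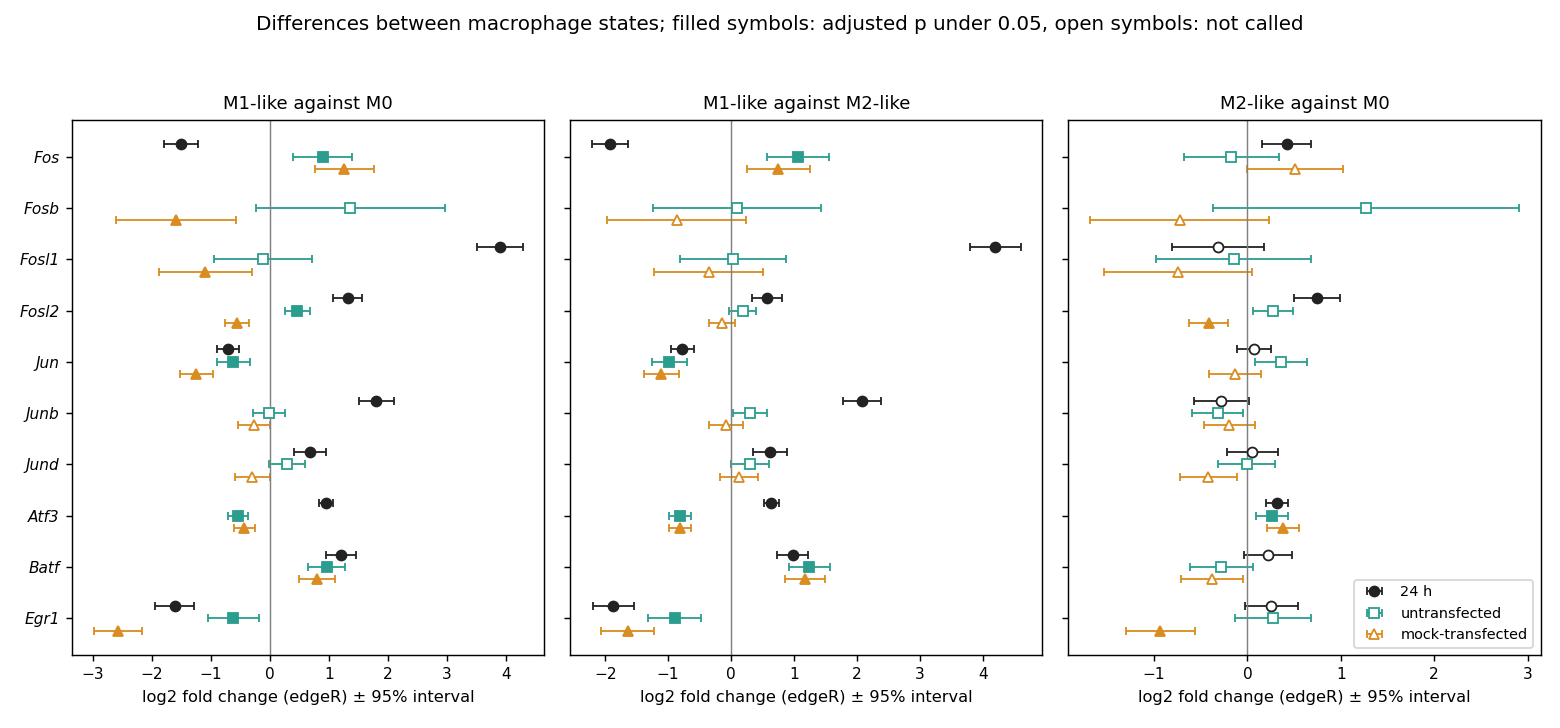
Log2 fold changes between polarization states for the 10 genes at 24 h, untransfected and mock, with 95% confidence intervals and filled symbols where the adjusted p was below 0.05 (Fosb has no point at 24 h, where it was not tested). Fosl1 is at 3.89 in M1-like against M0 cells at 24 h and at -0.12 in the untransfected cells, and Batf is above 0 in M1-like cells in every set.

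The partner and target lists were called in both directions among mock cells, where 30.9% of all genes were higher and 29.8% lower. Between M1-like and M2-like mock cells, 11 of 17 zipper partners were higher and 3 lower (median 0.41 beside 0.03 for all genes), with Batf2 again at the top (3.57) and Batf3 lowest (-2.74). The 9 phosphatases gave 4 and 4 (median -0.12, Dusp16 at 1.54 and Dusp2 at -2.96), and 13 other immediate early genes 4 and 5 (median -0.04, Csrnp1 at 1.78 and Zfp36 at -1.27). The 12 AP-1 targets gave 4 and 4 (median 0.14, Ccl2 at 2.88 and Mmp9 at -2.98), the 18 upstream genes 5 and 4 (median -0.01, Elk3 at 0.57 and Mapk3 at -0.77), and the 4 EGR and NAB genes 1 and 2 (median -0.75, Nab1 at 0.83 and Egr2 at -2.83). Whether these counts differ from those at 24 h was not tested.

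Here too markers of some other cells were lower in the M1-like state. Neutrophil markers overlapped among mock cells, at 23.7 to 27.4 CPM in M1-like and 18.6 to 34.6 CPM in M0 cells. The 5 B cell markers summed to 0.733 to 1.47 CPM in untransfected and 0.979 to 2.36 CPM in mock M1-like cells. In M0 cells they summed to 9.34 to 32.4 CPM untransfected and 6.66 to 34.9 CPM mock, with 0 of the 5 at 0 in each group. The 6 mesothelial and fibroblast markers (Col1a1 the highest) summed to 17.7 to 58.3 and 10.4 to 23.5 CPM in the M1-like groups against 79.2 to 159 in untransfected M0, 114 to 186 in M0 mock and 63.9 to 252 CPM in untransfected M2-like cells. The eosinophil markers summed to 0.61 to 1.7 CPM in untransfected and 0.737 to 1.28 CPM in mock M1-like cells. In M0 cells they summed to 16.1 to 24.3 CPM untransfected and 9.47 to 12.5 CPM mock. The macrophage markers summed to 6600 to 7740 and 6160 to 7160 CPM in the same M1-like groups. They summed to 16400 to 16700 CPM in untransfected M0 and 12600 to 15300 CPM in M0 mock cells. The part of these markers in the differences of Jun, Egr1 and the other members was not tested.

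The mock libraries were set against the untransfected ones of the same state. Mock cells were harvested 48 h after transfection and the untransfected cells may have been taken earlier, so reagent and time in culture cannot be told apart. In M0 cells, 4 of the 10 genes, Egr1, Fosb, Fosl2 and Jun, were higher in the mock libraries and 0 were lower (11.7% and 8.66% of all genes). In M1-like and M2-like cells no member passed the test. Egr1, the immediate early gene with the clearest change, measured 11, 9.99 and 9.89 CPM in untransfected and 42.5, 25.7 and 21.1 CPM in mock M0 cells. All mock libraries were above all untransfected ones, at 2.88-fold (log2 fold change 1.53 ± 0.196, adjusted p = 4.9e-07). Fosl2 rose from 53.4, 54.8 and 52.7 to 99.2, 95.4 and 82.4 CPM, 1.72-fold and without overlap (0.78 ± 0.107, adjusted p = 1.58e-06).

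Fosb went from 1, 2 and 3 reads in untransfected M0 to 18, 29 and 15 reads in M0 mock cells. The 62 reads against 6 gave a depth-adjusted ratio of 9.53, with an exact 95% interval of 4.14 to 27 that covers counting error only, and the fitted log2 fold change was 3.17 ± 0.667 (adjusted p = 0.000692). Jun rose from 321, 314 and 301 to 420, 596 and 385 CPM (0.58 ± 0.141, adjusted p = 0.00286), with its second mock library the highest. Without M0 mock replicate 2 the Jun value was 0.37 (adjusted p = 0.0706). Fos, at 41.2, 54.5 and 52.2 CPM untransfected and 38.3, 24.4 and 36.6 CPM mock, did not pass (-0.58 ± 0.262, adjusted p = 0.117), so the members called in M0 cells did not include the founding FOS gene.

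For M1-like cells, edgeR called 0 of 10 members between mock and untransfected libraries, 1 at an unadjusted p below 0.05, and DESeq2 called 0. Of all 14172 genes, 0 were called higher and 0 lower (0% each) by edgeR and 0 by DESeq2, with 438 at an unadjusted p below 0.05. In M2-like cells edgeR and DESeq2 called 0 of 10 and 0 members had an unadjusted p below 0.05, with 1.67% of all genes higher and 0.0988% lower. Egr1 had a log2 fold change of -0.43 in M1-like cells (95% interval -0.88 to 0.03) and 0.32 in M2-like cells (-0.07 to 0.71), and Fosl2 -0.24 (-0.45 to -0.03) and 0.09 (-0.12 to 0.3).

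Whether the mock minus untransfected difference varied between states was tested on the difference of differences (its value in one state minus that in the other). The tests against M0 were added after these values had been seen. Between M1-like and M0 cells, 0 members were called higher and 3 lower (3.22% and 5.85% of all genes): Fosl2 at -1.02 ± 0.151 (adjusted p = 1.89e-05), Egr1 with a 3.88-fold smaller ratio (adjusted p = 3.6e-05) and Jun at -0.62 ± 0.2 (adjusted p = 0.0452). Fosb was at -2.95 ± 0.968 (adjusted p = 0.0503). The Jun call held without M0 mock replicate 1, M0 mock replicate 3 or M1-like untransfected replicate 2 and was lost without any of the other libraries, most clearly without M0 mock replicate 2 (-0.41, adjusted p = 0.212). Between M2-like and M0 cells, 0 were higher and 2 lower (2.41% and 3.25%): Fosl2 at -0.69 ± 0.152 (adjusted p = 0.00456) and Egr1 with a 2.31-fold smaller ratio (adjusted p = 0.00716). Between M1-like and M2-like cells edgeR and DESeq2 called 0 of 10 members, with 2 at an unadjusted p below 0.05 (0.0353% and 1.09% of all genes). Each test against M0 uses the same 6 M0 libraries.

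Other immediate early genes moved with Egr1 in mock M0 cells, where 11.7% of all genes were higher and 8.66% lower. Of 13 measured, 7 were higher and 1 lower (median log2 fold change 0.48, all genes -0.004): Csrnp1 (1.97), Ier3 (1.4), Ier5 (0.92), Ppp1r15a (0.88), Klf6 (0.82), Gadd45b (0.76) and Btg2 (0.48) rose, and Nr4a2 fell by 1.28 on the log2 scale. Of 9 MAP kinase phosphatases 5 were higher and 1 lower (median 0.69), with Dusp5 at 1.93 and Dusp1, itself an immediate early gene, at 1.78. The 12 AP-1 targets gave 3 higher (Ccl2, Mmp9 and Plaur) and 1 lower (Ccnd1), at a median of 0.02, the 17 zipper partners 3 and 3 (median -0.01), the 18 upstream genes 2 and 2 (median 0.09) and the 4 EGR and NAB genes 0 and 1 (Nab2). The genes named for this comparison were taken from the lists after their values had been seen. Macrophage markers summed to 12600 to 15300 CPM in M0 mock against 16400 to 16700 CPM in untransfected M0 cells. Neutrophil markers, with Mmp8 the highest in both groups, summed to 18.6 to 34.6 against 38.6 to 47.8 CPM with 3 and 4 of 6 at 0. Eosinophil markers, with Siglecf the highest and 3 of 5 at 0 in both groups, summed to 9.47 to 12.5 against 16.1 to 24.3 CPM. T cell markers summed to 0 to 3.6 against 0 to 0.124 CPM. Their part in the rise of Egr1 and its companions was not tested.

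**Figure D4:**
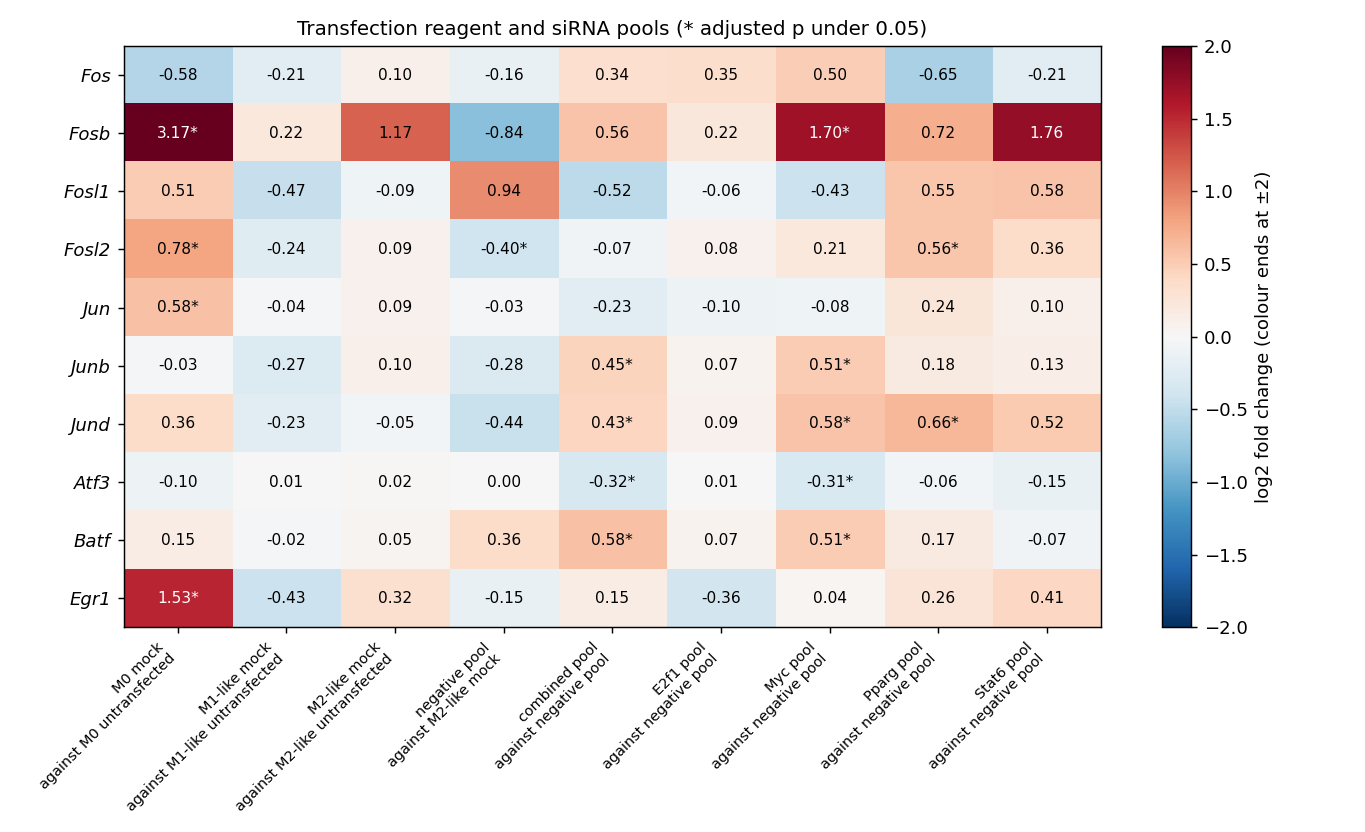
Heat map of the log2 fold changes of the 10 genes (rows) for mock against untransfected cells in each state and for each siRNA pool against its reference (columns), with the value printed in each cell, red above 0 and blue below, and an asterisk where the adjusted p was below 0.05. Egr1, Fosb, Fosl2 and Jun carry an asterisk in M0 cells, and no member does in M1-like or M2-like mock cells.

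The siRNA pools were given to M2-like cells to ask whether loss of 4 regulators moves them towards another state. Against the negative pool, Fosb with the Myc pool was the only called member past a log2 fold change of 1. The combined and Myc pools went with somewhat higher Junb, Jund and Batf and lower Atf3, the Pparg pool with higher Fosl2 and Jund, and the E2f1 and Stat6 pools with no called member. All pools are compared with the same 3 negative pool libraries, so these comparisons are not independent of each other.

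The negative pool itself, against M2-like mock cells, called 0 members higher and 1 lower (6.67% and 5.03% of all genes). Fosl2 measured 56.6, 48.7 and 52.3 CPM against 71.5, 65.8 and 70.5 CPM, without overlap (log2 fold change -0.4 ± 0.108, adjusted p = 0.012), and the call was lost without negative pool replicate 2 (-0.35, adjusted p = 0.073). Among its neighbours, 5 of 13 immediate early genes (Csrnp1 highest at 0.83) and 6 of 12 AP-1 targets (Mmp13 at 1.24) were higher and 0 lower. Of 17 zipper partners 2 were higher and 1 lower (Ddit3 at 0.92, Maf at -0.51), of 9 phosphatases 1 and 0 (Dusp10 at 0.46), of 18 upstream genes 0 and 2 (Mapk3 at -0.51) and of 4 EGR and NAB genes 0 and 1 (Nab2 at -0.59).

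The combined pool, which lowered Pparg to 36.9, Myc to 7.97, E2f1 to 12.1 and Stat6 to 158 CPM, gave 3 members higher and 1 lower than the negative pool (12.5% and 13.9% of all genes). Junb measured 201, 188 and 193 CPM against 144, 141 and 139 CPM, and Batf 13.5, 17.5 and 17.9 against 12.5, 10 and 10.3 CPM. Both sets of libraries stood apart (log2 fold change 0.45 ± 0.139, adjusted p = 0.0149, for Junb and 0.58 ± 0.158, adjusted p = 0.00612, for Batf). Jund, at 242, 189 and 195 against 182, 143 and 140 CPM, was higher by 0.43 ± 0.156 (adjusted p = 0.0401), a call lost without combined pool replicate 1 (0.31, adjusted p = 0.211), negative pool replicate 2 (0.38, adjusted p = 0.133) or negative pool replicate 3 (0.36, adjusted p = 0.156). Atf3, at 586, 561 and 492 against 730, 696 and 625 CPM, was lower (-0.32 ± 0.0881, adjusted p = 0.00634) and lost its call without combined pool replicate 3 (-0.25, adjusted p = 0.0578).

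With the Myc pool, 4 members were higher and 1 lower (13.9% and 15.6% of all genes). Junb measured 180, 206 and 221 CPM (log2 fold change 0.51 ± 0.139, adjusted p = 0.0053) and Jund 212, 245 and 237 CPM (0.58 ± 0.156, adjusted p = 0.00523), every library above those of the negative pool. Batf measured 13, 15.6 and 18.3 CPM (0.51 ± 0.158, adjusted p = 0.0137) and Atf3 609, 559 and 483 CPM (-0.31 ± 0.0881, adjusted p = 0.00737). The Batf call was lost without Myc pool replicate 3 (0.39, adjusted p = 0.102) or negative pool replicate 2 (adjusted p = 0.0605) or 3 (0.0599), and the Atf3 call without Myc pool replicate 3 (-0.23, adjusted p = 0.0801). Fosb had 22, 40 and 17 reads against 10, 3 and 8 (1.7 ± 0.516, adjusted p = 0.0124), and its call went without Myc pool replicate 2 (1.32, adjusted p = 0.0956) or negative pool replicate 2 (1.39, adjusted p = 0.0682).

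With the Pparg pool, 2 members were higher and 0 lower (2.71% and 3.03% of all genes): Fosl2 at 71.8, 84.5 and 74.9 CPM, 1.47-fold above the negative pool (adjusted p = 0.00114), and Jund at 246, 208 and 284 CPM (log2 fold change 0.66 ± 0.156, adjusted p = 0.00804). The Jund call was lost without Pparg pool replicate 3 (0.55, adjusted p = 0.0878) or negative pool replicate 3 (0.6, adjusted p = 0.0626). With the E2f1 pool edgeR and DESeq2 called 0 of 10 and 0 had an unadjusted p below 0.05 (0.261% and 0.649% of all genes). With the Stat6 pool edgeR called 0 of 10, DESeq2 2, and 4 had an unadjusted p below 0.05 (0.466% and 1.04% of all genes), with log2 fold changes of 1.76 for Fosb (adjusted p = 0.0863), 0.52 for Jund (adjusted p = 0.0914), 0.36 for Fosl2 (adjusted p = 0.0891) and 0.42 for Egr1 (adjusted p = 0.368).

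Several of these differences depended on the reference. Against M2-like mock cells in place of the negative pool, the combined pool gave 0.17 for Junb (adjusted p = 0.358) and -0.02 for Jund (adjusted p = 0.952), the Myc pool 0.23 for Junb (adjusted p = 0.195), 0.13 for Jund (adjusted p = 0.535) and 0.86 for Fosb (adjusted p = 0.159), and the Pparg pool 0.22 for Jund (adjusted p = 0.374) and a Fosl2 difference that did not pass (adjusted p = 0.359). Batf and Atf3 kept their direction and their call with the combined and Myc pools under either reference. Other members were called only against mock cells. With the combined pool Fosl2 was lower at -0.47 (adjusted p = 0.000866). With the Pparg pool Fosl1 was 2.82-fold higher (adjusted p = 0.00511), Batf was higher by 0.54 (adjusted p = 0.0227) and Fos lower at -0.8 (adjusted p = 0.0337). With the Stat6 pool Fosl1 was 2.87-fold higher (adjusted p = 0.00688). Few reads lay behind both Fosl1 values: 29, 53 and 35 with the Pparg pool and 32, 44 and 38 with the Stat6 pool. M2-like mock cells had 11, 20 and 7 Fosl1 reads, and the negative pool, without a targeting siRNA, 17, 25 and 40.

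With the combined pool, 5 of 17 zipper partners were higher and 2 lower (median -0.01, all genes 0.01), between Batf2 at 0.8 and Batf3 at -0.75. Of all genes, 12.5% were higher and 13.9% lower in this comparison. The phosphatases gave 2 and 1 (median 0.35, Dusp4 at 0.95, Dusp5 at -0.63), the immediate early genes 1 and 2 (median -0.06, Ppp1r15a at 0.73, Zfp36 at -0.42) and the AP-1 targets 2 and 3 (median -0.13, Ccl2 at 1.43, Mmp13 at -0.93). The upstream genes gave 3 and 3 (median -0.1, Mapk7 at 0.5, Map2k3 at -0.56) and the EGR and NAB genes 1 and 1 (median 0.12, Nab1 at 0.42, Nab2 at -0.66). Neutrophil markers summed to 56 to 62.7 CPM with the combined pool against 28.6 to 44.3 CPM with the negative pool, with 4 and 3 of 6 at 0. In the negative pool, Mmp8 alone was at 31.3 CPM and S100a8 at 4.38 CPM. The 6 markers summed to 88 to 113 CPM with the Pparg pool and 52.6 to 61.6 CPM with the Myc pool, with 3 of 6 at 0 in each. Mmp8 was the highest of these markers in all the groups named here. Their part in the pool results was not tested.

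Over the 12 reprogramming conditions, the members fell into patterns that can be described by the correlation of their mean log2 CPM. The 12 points share one normalization, and 8 of them are M2-like cells. Jun went with Egr1 (Pearson r = 0.903) and Atf3 (0.857), and against Fos (-0.873), and Fos also went against Egr1 (-0.815). Atf3 went against Batf (-0.815). Among 10134 other genes, those most like Jun were Gfod1 and Hspg2 (0.984 each), Atf3 was closest to Gatm (0.984), Batf to Icam1 (0.979), Fos to Rspry1 (0.967) and Egr1 to Bahcc1 (0.962) and the basement membrane collagen genes Col4a2 (0.952) and Col4a1 (0.946). Junb was closest to Dhx16 (0.934), Fosl1 to Ddost (0.928), Fosl2 to Bicra (0.922) and Jund to Slc27a4 (0.919).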

How the data were processed

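RNA-seq libraries of mouse macrophages were used. Per the labels and methods, the authors trimmed reads, mapped them to mm10 and counted them per gene, and the submitters' processing notes name Trimmomatic, TopHat2 and featureCounts. Versions, annotation release and the strand and multimapping settings are not given in the sources used here. The authors deposited raw read counts per gene, without normalization. Without a stated strand setting, reads of Jun, Jund, Junb, Fosl1 and Atf3 cannot be told apart from those of the genes that overlap them on the other strand (Junos, Gm11175, Prdx2, Ccdc85b and Gm24748).

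The 2 technical runs of a mouse and condition differed by about sampling noise (chi-square per gene 1.07 to 1.1, against 5.86 to 96.6 between mice) and were summed. Between reprogramming replicates of 1 group the value was 4.48 to 23, which does not tell separate animals from separate cultures or preparations. Genes were kept by filterByExpr (minimum count 10, minimum total 15), scaled by TMM factors and tested in edgeR 4.0.16 (R 4.3.3) with the quasi-likelihood test, in 1 model of all groups per experiment, with Benjamini-Hochberg adjustment over all tested genes and a threshold of 0.05. CPM values use TMM-scaled library sizes. At 24 h 9 of the 10 members passed the filter, and 10 in the reprogramming experiment, where Fosb held 414 reads in all. Replicate numbers of the polarization experiment mark the same mouse. Same-mouse samples of different conditions deviated together (median r 0.276, over 0.1 in 7 of 9 pairs, other pairs -0.14), and adding the mouse as a block changed no count of members at 24 h.

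Alternatives were DESeq2 1.42.0, RLE size factors, no or a stricter count filter (10 in every sample), a replicate block, the compared groups alone, a log2 fold change of at least 1, runs kept separate, M2-like mock as the reference and each replicate left out. The model code was tested on simulated data. The members and gene lists were chosen with earlier results of these data known. Named in each list were the called gene with the largest rise and that with the largest fall in M1-like against M2-like cells (24 h and mock), negative pool against mock and combined against negative pool, the pool targets, and, for each member with a mean of at least 1 CPM, the genes closest in pattern (the 3 closest were computed). Of the genes this rule names, 1 is not reported here. Genes named for M0 mock against untransfected cells, and the tests of mock minus untransfected against M0, were chosen after the values had been seen. Figures were drawn with matplotlib 3.10.9.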

Additional observations from a re-analysis of the deposited data

Results flagged for a closer look

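The mock minus untransfected difference varied between states for 3 genes. Relative to M0 cells, that of M1-like cells was lower by 1.02 log2 units for Fosl2 (-1.02), and it was -1.96 for Egr1 and -0.62 for Jun. In M2-like cells relative to M0 it was -0.69 for Fosl2 and -1.21 for Egr1. These tests were added after the values had been seen, and the Jun value lost its call without M0 mock replicate 2 (-0.41, adjusted p = 0.212) and without 8 of the other 11 libraries.

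Some members stood on opposite sides at 24 h and in the untransfected or the mock cells of the reprogramming experiment, with every sample on its side of the reference group. This difference was not tested, since the experiments were tabulated and normalized separately. Fos in M1-like against M0 cells was at -1.51 at 24 h and 1.26 in mock cells, and against M2-like cells at -1.93 at 24 h and 1.06 in untransfected cells. Fosl2 in M1-like against M0 cells was at 1.32 at 24 h and -0.56 in mock cells, and in M2-like against M0 cells at 0.75 and -0.41. Among untransfected cells Fosl2 was on the same side as at 24 h. Its mean there was 73.7 CPM in M1-like, 64.9 in M2-like (not called) and 53.6 CPM in M0 cells, against 92.3 CPM in M0 mock cells. Atf3 in M1-like against M0 cells was at 0.95 at 24 h, -0.54 in untransfected and -0.44 in mock cells, and against M2-like cells at 0.64, -0.81 and -0.82. Egr1 in M2-like against M0 cells was at 0.26 at 24 h, where it did not pass the test, and -0.93 in mock cells. In untransfected cells the means of Egr1 were 12.4 CPM in M2-like and 10.3 CPM in M0 cells, with overlapping libraries.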

How the results depend on the processing

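Of 518 fold changes of called members under alternatives other than leaving out a library, 462 kept their direction and call, 55 kept the direction but not the call, and 1 reversed: Jund in the combined pool, at -0.015 against M2-like mock cells. Values are numbers of members called. With a log2 fold change of at least 1 also required, M2-like against M0 at 24 h, M1-like and M2-like against M0 untransfected, M2-like against M0 mock, the negative pool, the combined pool and the Pparg pool each gave 0, M1-like against M2-like at 24 h 4, untransfected 2 and mock 3, M1-like against M0 mock 5, M0 mock against untransfected 2, the Myc pool 1, and M2-like against M0 mock minus untransfected 1. With runs kept separate, M2-like against M0 at 24 h gave 5. With DESeq2, M2-like against M0 untransfected, the negative pool and the Stat6 pool gave 2 each. With no count filter, M2-like against M0 gave 4 untransfected and 5 mock, the negative pool 3, the Stat6 pool 3, the mock minus untransfected tests against M0 5 each, and M1-like against M2-like 1. With only the compared groups, M2-like against M0 gave 4 untransfected and 0 mock, the negative pool 3, the E2f1 pool 1 and the Stat6 pool 2. With M2-like mock as the reference, the Myc pool gave 2 and the Stat6 pool 1.

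In the reprogramming experiment the replicates share only a number. Same-numbered samples had a median correlation of deviations of 0.156, over 0.1 in 124 of 198 pairs, and 35 of 36 samples correlated best with their own number, a hint from the data and not the design. A replicate block gave 3 members for M2-like against M0 untransfected, 2 for the negative pool and 2 for the Stat6 pool, and moved no other count by over 1.5 times.

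Leaving out a single library gave 2 to 5 members for M2-like against M0 at 24 h, 0 to 2 untransfected and 1 to 3 mock, 0 to 3 for the negative pool, 3 to 5 for the Myc pool, 1 to 2 for the Pparg pool, 0 to 1 for the Stat6 pool and 2 to 5 for M1-like against M0 mock minus untransfected. The cause of these changes was not tested, except that fewer samples or genes entered some fits.

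Counts over all genes moved by over 1.5 times in several comparisons. Higher and lower genes for M2-like against M0 mock were 311 and 232, but 478 and 422 with the block and 79 and 33 with only the compared groups. The M1-like against M0 test of mock minus untransfected went from 457 and 829 to 234 and 493, and that of M2-like from 341 and 461 to 207 and 272, with only the compared groups. With no filter, M1-like mock against untransfected went from 0 and 0 to 2 and 40, M2-like from 237 and 14 to 320 and 67, and M1-like against M2-like mock minus untransfected from 5 and 155 to 30 and 276. M2-like against M0 at 24 h went from 2176 and 2323 to 3649 and 3646 with runs separate. The E2f1 pool (37 and 92) gave 64 and 145 with DESeq2, 61 and 176 unfiltered, 70 and 166 with the block, 106 and 216 with the compared groups alone and 894 and 754 against M2-like mock. The Stat6 pool (66 and 148) gave 109 and 253 with DESeq2, 121 and 259 with the block and 869 and 755 against M2-like mock, and the Pparg pool (384 and 430) 1359 and 1082 against it. With 1 to 40 reads per library, Fosb differences under several-fold were not detectable at this depth, and Fosl1 had 6 to 53 reads in the reprogramming libraries.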
